A study of Mus musculus with 4 samples.

Results

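Of 28595 genes counted in sections of mouse testis, 2598 carry a pseudogene biotype, and 69 of these form the set described here. They are the pseudogenes with at least 100 counts summed over the 6 entire-section libraries. A total of 74 pseudogenes passed that minimum, and 5 were left out by name. The summed counts of these libraries chose the members, so their level there is a description and was not tested. Each member passed the filter for the test.

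Libraries were made by photo-isolation chemistry, where light uncages DNA primers in a chosen area of the tissue and transcripts from outside it stay unread. The 10 µm sections were of wild-type testis or of testis from knockouts of H3t, a histone H3 variant of the male germ line. In each genotype the whole section was irradiated for 3 libraries, and for 3 more the light was directed at Leydig cells, which lie between the tubules and make testosterone. Titles of the wild-type samples carry the word young, and those of the knockouts give no age. The sources used here do not tell if a group's 3 libraries stem from 3 animals, so the p-values reflect the spread among libraries, which may be technical. The deposited barcode list gives each group 1 library name with 3 barcoded samples, so library and group cannot be told apart. The targeted gene, H3f4, is itself annotated as an unprocessed pseudogene and gave 1 count over all 12 libraries, in wild type, too few to check any label.

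A pseudogene is a copy or relic of a gene that is annotated as no longer coding for the full protein. Processed pseudogenes arise when a messenger RNA is reverse-transcribed and inserted elsewhere in the genome, so they usually lack introns and resemble the mature transcript of their parent gene. Unprocessed pseudogenes come from duplicated DNA, and unitary pseudogenes are genes that lost their coding function with no working copy left in the species. Highly expressed housekeeping genes, above all those of ribosomal proteins, have many processed copies. Testis germ cells transcribe an unusually broad part of the genome, including copies that are silent in other tissues.

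The 69 members comprised 47 processed, 8 transcribed processed, 4 transcribed unitary, 3 unprocessed, 3 transcribed unprocessed and 3 unclassified pseudogenes, and 1 polymorphic pseudogene. They lie on 20 chromosomes, and 49 have a single annotated exon. A coding transcript matched 64 of them, with at least 50% of the pseudogene aligned in 61. The closest coding transcript was that of a ribosomal protein for 44 members, shared among 29 ribosomal protein genes. Rpl21 had 4 copies in the set and Rpl15 had 3. Identity of these 44 to their coding gene had a median of 99.6% and a lowest value of 79.7%. Another 2 members, Gm13339 and Gm13340, match the mitochondrial genes mt-Nd2 and mt-Co1 and lie inside the coding gene Myo3a. No coding match was found for 5 members, namely 1700086L19Rik, Smkr-ps, 1700031M16Rik, Spanxn4 and 4930451G09Rik. GENCODE lists 3 of the 69 under a type other than pseudogene: Rnls and Srsf3-ps as protein-coding and Smkr-ps as a long noncoding RNA.

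How far a pseudogene's reads can be told from those of its coding gene depends on the bases in which they differ, so 60-base stretches of the annotated transcripts are shown for copies at both ends of that range. Each stretch is the gap-free window within the coding part of the parent that holds the most differences, which need not be where the reads fall. Capitals mark the bases that differ between pseudogene and coding gene. For Rpl31-ps8 (chr15:90764282-90764341, minus strand) and Gm7336 (chr7:51747636-51747695, plus strand), copies of the ribosomal protein gene Rpl31 and of the glycolytic enzyme gene Gapdh, no base of the coding alignment differs, so 1 line stands for both genes.
Rpl31-ps8 and Rpl31: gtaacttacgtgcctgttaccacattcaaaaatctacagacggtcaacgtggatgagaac
Gm7336 and Gapdh: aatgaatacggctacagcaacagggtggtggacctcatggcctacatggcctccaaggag
Rps12-ps9 (chr8:123206700-123206759, plus strand) differs from Rps12, which encodes a small-subunit ribosomal protein, at 2 bases of the window.
Rps12-ps9: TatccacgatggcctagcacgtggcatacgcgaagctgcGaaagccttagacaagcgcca
Rps12: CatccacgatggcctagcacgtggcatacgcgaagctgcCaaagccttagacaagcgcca
Gm5781 (chr10:116973046-116973105, minus strand) differs from Rps15, another small-subunit gene, at 7 bases.
Gm5781: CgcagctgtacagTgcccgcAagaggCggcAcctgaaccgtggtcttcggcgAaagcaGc
Rps15: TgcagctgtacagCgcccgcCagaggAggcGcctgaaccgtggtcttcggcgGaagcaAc
The next 3 are among the pseudogenes nearly absent from knockouts, described further on, and differ more from their closest coding gene. Others of that group differ less, such as 1700019M22Rik, which is 92.0% identical to 1700084M14Rik and differs at 9 bases of its window. BC106175 (chr12:8479696-8479755, minus strand) differs from Prr30, a proline-rich protein gene, at 15 bases of the window.
BC106175: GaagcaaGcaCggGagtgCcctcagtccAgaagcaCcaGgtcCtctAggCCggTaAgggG
Prr30: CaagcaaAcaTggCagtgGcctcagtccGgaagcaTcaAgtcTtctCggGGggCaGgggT
Gm14128 (chr2:150521409-150521468, plus strand) differs from Ankar, an ankyrin and armadillo repeat gene, at 15 bases.
Gm14128: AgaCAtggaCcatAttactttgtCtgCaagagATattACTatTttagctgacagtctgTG
Ankar: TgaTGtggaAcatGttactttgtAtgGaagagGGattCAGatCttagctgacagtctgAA
Spn-ps (chr15:90898122-90898181, minus strand) differs from Spn, the gene of the leukocyte surface protein sialophorin, at 17 bases.
Spn-ps: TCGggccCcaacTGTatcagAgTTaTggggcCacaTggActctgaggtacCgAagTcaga
Spn: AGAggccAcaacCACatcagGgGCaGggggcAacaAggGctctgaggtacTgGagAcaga

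Across the set, 10 members were identical to their coding match over the aligned bases, and 15 had no stretch of 50 bases that was absent from every other annotated transcript. The sources used here do not give how reads with several equally good positions were assigned, so the split of counts between such a copy and its coding gene is uncertain. Coding exons were overlapped by 3 members, all on the opposite strand: Gm9385 over Gadl1, Rps12-ps4 over Nphs1 and Gm16976 over Ptgdr. Reads of these pairs cannot be told apart without strand. Reads of this protocol come from transcript 3′ ends, so counts were not divided by gene length. The coding windows above therefore do not show how well reads separate. Over the last 100 aligned bases Rpl31-ps8, Gm7336 and Rps12-ps9 differ from their coding gene at 0 positions and Gm5781 at 4. Gm14128 differs there at 6, BC106175 at 9 and Spn-ps at 12.

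Levels were uneven. Summed over the entire sections, members held 27998 counts, with a median of 232 and a range of 101 to 1746 per member, and the 10 best-counted held 45.1% of them. Ppp1ccb (ENSMUSG00000100153), a copy of the protein phosphatase catalytic subunit gene Ppp1cc, was first with 1746 counts, while Ppp1cc itself had 281. Ribosomal protein copies filled 8 of the other 9 places. Rps7-ps3 had 1374 counts against 206 for Rps7, Rpl31-ps8 had 1261 against 563 for Rpl31, and Rpl15-ps3 had 1238 against 30 for Rpl15. Gm15536 and Gm6394 had 937 and 717 counts. Rps12-ps9 had 1394 counts against 991 for Rps12. The order was the other way for Rps13-ps1 with 357 counts, chosen after its values were seen, whose match Rps13 had 925. Gm11942, a copy of the acidic ribosomal protein genes, matched the gene model Gm10073 most closely, and that model had 0 counts. It also matched 2 other coding genes, whose counts were not set beside it. Of the 60 members with at least 50% of their sequence aligned to a coding gene in the table, 40 had more counts than that gene.

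At the lower end, the members just inside the minimum were Gm10478 with 113 counts, Rps18-ps3 with 107, Gm10240 with 105, 4930451G09Rik with 104 and Gm5805 with 101. Those just outside were Gm42666 and Gm6853 with 98 each and 2700099C18Rik, Gm12900 and Gm13423 with 97 each.

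Knockout against wild-type entire sections asks how these transcripts differ in testes with disrupted spermatogenesis. In edgeR's quasi-likelihood test, with TMM (trimmed mean of M values) scaling of the libraries and calls at an adjusted p under 0.05, 13 of 69 members rose and 16 fell. Among all 7907 genes tested, 20.7% were called higher and 36.9% lower. The median log2 fold change was 0.25 over the members and -0.31 over all genes. With counts scaled by library size alone these medians were 0.77 and 0.21, and with RLE size factors, the median of ratios, 0.14 and -0.43, so changes are relative to the scaling. The same scalings called 31 and 12 members higher, and each called 16 lower. Of all genes called, 36.0% were higher under TMM and 51.4% under library size alone.

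**Figure D1:**
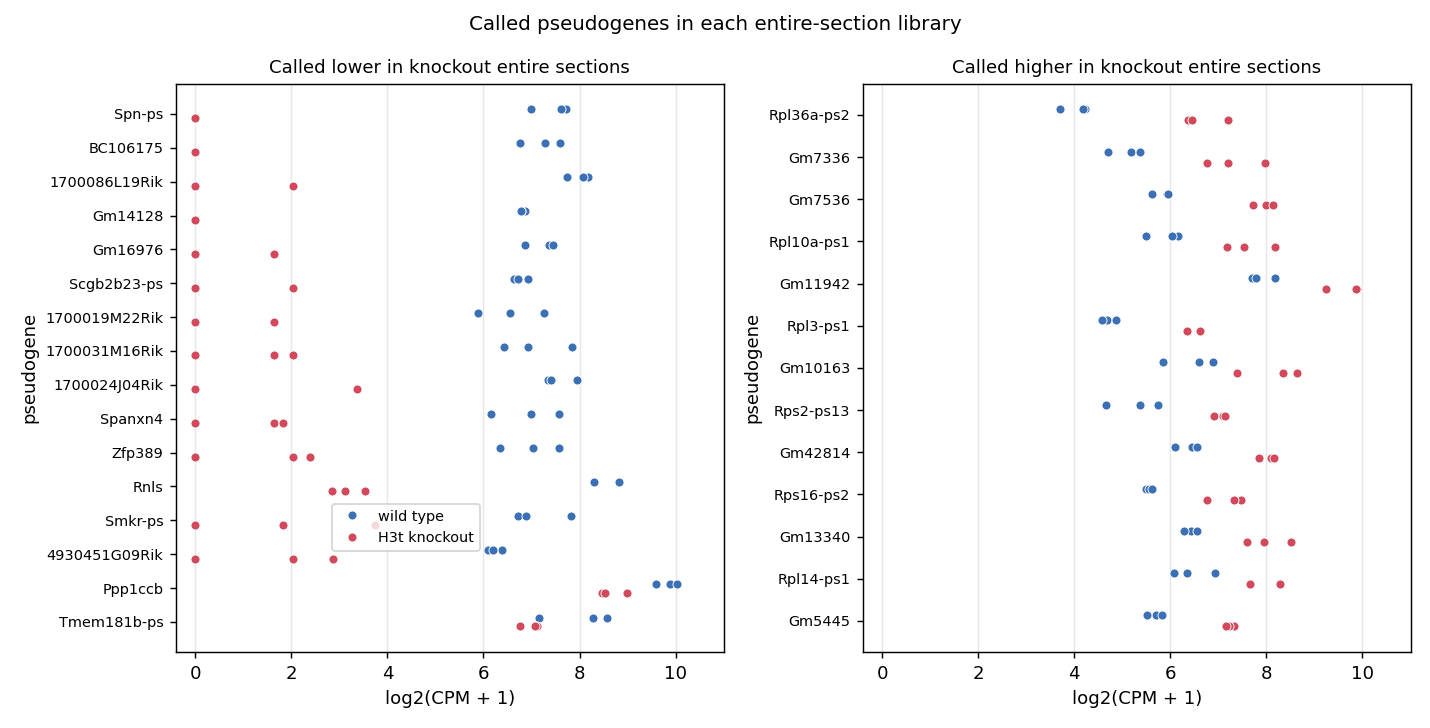
Each point is 1 entire-section library, placed by log2(CPM + 1) of the 16 pseudogenes called lower and the 13 called higher in knockouts; CPM is counts scaled to library size. For 14 pseudogenes the knockout points lie far below the wild-type points and stand for at most 5 counts per library. Ppp1ccb, Tmem181b-ps and the higher pseudogenes were counted in every library of both genotypes, though Rpl36a-ps2 had only 10, 9 and 3 wild-type counts.

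The fall came in 2 sizes, a split made after the values were seen. For 14 members the fitted log2 fold change was between -8.67 and -4.76, and for Ppp1ccb and Tmem181b-ps it was smaller. In all 16 the knockout CPM values lay below all wild-type values, as they did for 34.4% of all tested genes. Together the 14 had 1112, 1327 and 546 counts in the wild-type entire sections and 14, 5 and 14 in the knockouts. The largest count of any of the 14 in a knockout entire section was 5. Each thus met the minimum for membership, and the filter for the test, through its wild-type counts. A pseudogene nearly absent from knockouts could enter the set only by being well counted in wild type. How far this choice shaped the size of the falls or the traits of the 14 was not tested. No member of the 14 is a ribosomal protein copy. Their annotated transcripts are mostly distinct: 9 share no 50-base stretch with any other transcript, and the lowest share of own stretches was 64.1%. Multi-exon models make up 12 of the 14, against 8 of the other 55 members. All 4 transcribed unitary pseudogenes are among them.

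Spn-ps (ENSMUSG00000116210) had 71, 110 and 48 counts in the wild-type libraries and 0, 0 and 0 in the knockout libraries. Taking 3 counts per group as the floor, its level was at least 67.9-fold lower in knockouts (adjusted p = 2.1e-23, edgeR). BC106175, the relative of Prr30, had 61, 101 and 38 counts against 0, 0 and 0, which is at least 59.3-fold lower (adjusted p = 5.6e-22, edgeR). Gm14128, the relative of Ankar, had 65, 57 and 27 against 0, 0 and 0, at least 44.2-fold lower (adjusted p = 4.1e-19, edgeR). These 3 were the members with no count in any knockout entire section.

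No coding match was found for any of the 4 unitary pseudogenes. 1700086L19Rik had 120, 151 and 66 counts in the wild-type libraries and 0, 0 and 1 in the knockout libraries, a ratio of 299.9 with a counting interval of 53.5 to 11880. For Smkr-ps the counts were 59, 117 and 29 against 0, 1 and 4, a 36.5-fold ratio (interval 15.4 to 113.6). 1700031M16Rik, with 22 annotated exons, had 48, 120 and 30 against 1, 0 and 1, a ratio of 88.1 (24.1 to 732.6). All 4 fell, and the fourth, 4930451G09Rik, had 47, 35 and 18 against 3, 0 and 1. None of their knockout values reached the lowest wild-type value.

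Rnls, the gene of the flavoprotein renalase, is listed here as a polymorphic pseudogene. It kept the most knockout counts of the 14, with 254, 164 and 78 in wild type and 5, 3 and 2 in knockouts, and fell by 5.85 ± 0.61 on the log2 scale (SE, adjusted p = 3.5e-20, edgeR). 1700024J04Rik had 92, 129 and 42 counts against 0, 0 and 3. Spanxn4, named for the sperm protein family encoded on the X chromosome but annotated on chromosome 12, had 40, 99 and 31 against 1, 1 and 0. Gm16976, whose exons overlap Ptgdr on the other strand, had 93, 60 and 43 against 1, 0 and 0. Wild-type and knockout libraries were far apart for each of them. Zfp389, a zinc finger gene relic, Scgb2b23-ps, a secretoglobin relic, and 1700019M22Rik had log2 fold changes of -5.88, -6.74 and -6.71.

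Markers of spermatocytes and spermatids also took smaller shares of knockout entire sections, while those of spermatogonia overlapped between the genotypes. The summed share of 12 elongating spermatid markers was 2.85% to 5.20% of counts in wild-type entire sections and 0.0232% to 0.0948% in knockouts, where 11 of the 12 still had a count and Gapdhs was at 0. For 10 round spermatid markers the shares were 0.562% to 1.07% and 0.001% to 0.014%, with Spaca7 and Tssk1 at 0 in knockouts, and for 14 spermatocyte markers 0.803% to 0.935% and 0.0296% to 0.0361%, with none at 0. The 9 spermatogonia markers held 0.0715% to 0.0872% in wild type and 0.0665% to 0.0755% in knockouts, with Gfra1 at 0. The part of these cell types in the falls was not tested. In such bulk libraries fewer cells of a type and less RNA per cell cannot be told apart.

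Ppp1ccb and its coding gene were called in opposite directions. Ppp1ccb had 939, 1047 and 768 CPM in wild-type entire sections and 353, 370 and 510 CPM in knockouts, without overlap. The fitted log2 fold change was -1.71 ± 0.47 (SE, n = 3 and 3, adjusted p = 0.00082, edgeR). Ppp1cc had 35, 19 and 17 counts in the wild-type libraries and 74, 59 and 77 in the knockout libraries, and rose by 1.23 ± 0.44 on the log2 scale (adjusted p = 0.012, edgeR). The aligned transcripts share every base except a gap of 3, over 1438 aligned positions. Only 2.4% of the 50-base stretches of Ppp1ccb occur in no other annotated transcript, and the last 100 aligned bases do not differ. The split of counts between Ppp1ccb and Ppp1cc is therefore uncertain too. In entire sections Ppp1ccb and Ppp1cc were the only pair of the set called in opposite directions. Ppp1ccb lost its call without knockout entire section replicate 1 (adjusted p = 0.064, edgeR) or replicate 2 (adjusted p = 0.0504, edgeR). Tmem181b-ps, a copy of the membrane protein gene Tmem181a, had 380, 142 and 311 CPM in wild type and 137, 107 and 134 CPM in knockouts, a fall of 1.60 ± 0.45 (adjusted p = 0.0010, edgeR). Its libraries did not overlap, though the closest values were near each other.

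Ribosomal protein copies, 44 of the 69 members, made up 10 of the 13 that rose and none of those that fell. In the TMM fit of all 12 libraries the share of the 44 that rose is close to the 20.7% of all genes called higher. There the count of rises alone does not set them apart. RLE size factors and DESeq2 each called 9 higher, beside 19.5% and 16.6% of all genes. More were called higher with the entire sections fitted alone (26), a replicate block (28) and library size alone (27). Those settings called 30.2%, 32.6% and 33.1% of all genes higher. Under TMM the median log2 fold change of the 44 copies was 0.64, and 38 were above 0. That median was 0.52 under RLE size factors, with 33 above 0, and 1.15 under library size alone, with all 44 above 0. Of all 7907 genes tested, 3385 were above 0 under TMM, 3165 under RLE size factors and 4283 under library size alone. Of the 83 coding genes for proteins of the cytosolic ribosome, close paralogs included, 66 were tested, 11 rose, 3 fell, and the median was 0.26. Markers of somatic cells also took larger shares of knockout entire sections: the 10 Leydig markers held 0.312% to 0.626% in wild type and 3.44% to 4.18% in knockouts, and the 10 Sertoli markers 0.289% to 0.537% and 1.30% to 1.45%. The 10 macrophage markers held 0.017% to 0.0388% and 0.118% to 0.297%, with each of these 30 markers counted in both genotypes. Their part in the rises was not tested.

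Rpl36a-ps2, identical to Rpl36a over its length, had the largest fold among the risers. It had 17.7, 17.2 and 12.1 CPM in wild-type entire sections and 82.0, 145 and 87.0 CPM in knockouts. Its log2 fold change was 2.12 ± 0.52 (SE, adjusted p = 0.00013, edgeR), beside 2.57 ± 0.49 for Rpl36a. Gm7536, identical to Rpl27a, had 34, 32 and 12 counts in the wild-type and 120, 110 and 68 in the knockout libraries, a log2 fold change of 1.56 ± 0.46 (adjusted p = 0.0017, edgeR), while Rpl27a at 0.48 ± 0.46 did not pass. For both, CPM was higher in every knockout library than in every wild-type library. Rpl36a-ps2 was under the filter's cutoff of about 23.0 CPM in every wild-type entire section, with 22 counts there against 124 in knockouts. It thus met the minimum for membership, and the filter for the test, through its knockout counts. So did Rpl3-ps1, with 33 counts against 102. Other risers with under 100 wild-type counts needed knockout counts for the minimum. How far this choice shaped the rises was not tested.

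Gm11942, the best counted of the risers, had 208, 220 and 291 CPM in wild type and 601, 951 and 939 CPM in knockouts (log2 fold change 1.26 ± 0.47, adjusted p = 0.015, edgeR). Rpl10a-ps1 had 40, 23 and 16 counts against 69, 72 and 93 (1.27 ± 0.46, adjusted p = 0.011, edgeR). The other ribosomal risers were Gm10163, Gm42814 and Gm5445, all copies of Rpl21, with Rps16-ps2, Rps2-ps13, Rpl3-ps1 and Rpl14-ps1, and their log2 fold changes lay between 1.01 and 1.24. Rpl21 itself, at -0.26 ± 0.52, did not pass, while Rpl3 and Rpl14 rose with their copies, by 1.07 and 1.94. Without wild-type entire section replicate 1, Gm10163 and Gm42814 missed the threshold (adjusted p = 0.076 and 0.059), as did Gm10163 without knockout replicate 3 (0.055) and Rps2-ps13 without wild-type replicate 3 (0.053).

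Only 3 of the 13 risers fall outside that family as defined by the symbol of the closest match. Gm11942 counts among them, because its closest match is a gene model. Gm7336, the Gapdh copy, had 35.3, 24.9 and 40.4 CPM in wild type and 107, 145 and 252 CPM in knockouts, a rise of 1.82 ± 0.47 on the log2 scale (adjusted p = 0.00036, edgeR), beside 1.49 ± 0.60 for Gapdh. Gm13340, the mt-Co1 copy, had 84.7, 76.5 and 92.9 CPM against 193, 365 and 245 CPM (1.12 ± 0.49, adjusted p = 0.038, edgeR). Its neighbour Gm13339, the mt-Nd2 copy, did not pass at -0.10 ± 0.45 and its libraries overlapped.

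The remaining well-counted members did not pass. Log2 fold changes were 0.76 ± 0.46 for Rps12-ps9, 0.55 ± 0.46 for Rpl31-ps8, 0.49 ± 0.45 for Gm15536 and 0.27 ± 0.46 for Rpl17-ps8. They were 0.16 ± 0.45 for Gm6394, 0.08 ± 0.46 for Rpl15-ps3, -0.09 ± 0.46 for Rps7-ps3 and -0.22 ± 0.45 for Gm5781, and the last 3 changed sign under other settings. Of these 8, all but Gm5781 had CPM values, scaled by library size alone, that were higher in every knockout library than in every wild-type library, as did 37.3% of all tested genes. All 40 members that did not pass lay between -0.51 and 0.95. The size of the rise depended on which libraries shared the fit. When the 6 entire-section libraries were fitted alone, 30 members were called higher, of which 26 are ribosomal protein copies, and all 13 were among them. With the replicate number as a block, which the pairing of these libraries allows, 32 were called higher, and the 16 lower members were the same in both fits. In those fits 30.2% and 32.6% of all genes were called higher. Both called Rps12-ps9, Rpl31-ps8 and Gm15536 higher, with log2 fold changes of 1.12, 0.77 and 0.78 under the block (adjusted p = 1.9e-05, 0.0031 and 0.0022, edgeR).

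**Figure D2:**
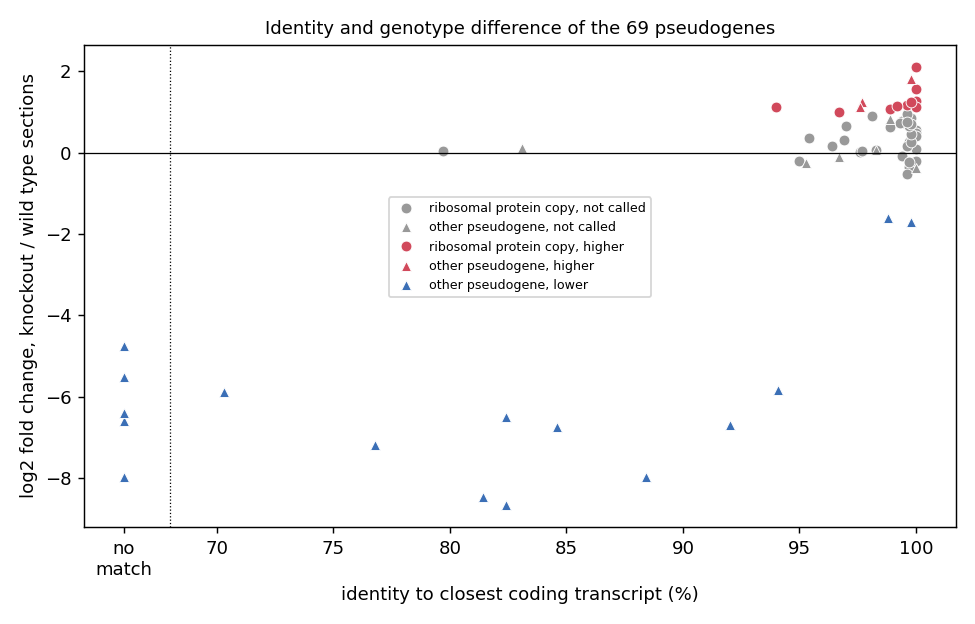
Each point is 1 of the 69 pseudogenes, placed by the identity of its transcript to the closest coding transcript (x axis, %) and by its log2 fold change between knockout and wild-type entire sections (y axis); 5 without a match stand at the left. Circles are ribosomal protein copies and triangles are other pseudogenes. The steep falls lie at identities of 94.1% or less or have no match, and the rises at 94.0% or more. Pseudogenes with steep falls entered the set through their wild-type counts.

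By identity to the coding match, 9 of the 40 members at 98% or more rose and 2 fell. From 90% to 98%, 4 of 15 rose and 2 fell, and under 90% none of 9 rose and 7 fell. All 5 without a match fell. The shares that rose in the upper bands are near the 20.7% called higher among all genes in this fit, and 36.9% of all genes were called lower. Members that fell under 90% or without a match are all among the 14 that met the minimum and the filter through wild-type counts. How far that choice shaped the pattern by identity was not tested. The 3 members with under 50% of their sequence aligned are Rnls, D130007C19Rik and 1700024J04Rik, so their identity refers to a short stretch only.

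Counts of a copy and its coding gene come from the same libraries and can share reads, so the pairs were set side by side without a test. Both were measured in the fit for 40 pairs with at least 50% of the pseudogene aligned, involving 29 coding genes. Both were called the same way in 6 pairs and in opposite ways in 1. The pseudogene alone was called in 6 and the coding gene alone in 2. BC106175 and Prr30 both fell, with log2 fold changes of -8.46 and -6.37, and so did Gm14128 and Ankar, with -7.98 and -5.85. The other shared calls were the rises of Rpl36a, Gapdh, Rpl3 and Rpl14 with their copies. Pearson's r across the 40 pairs was 0.91 and Spearman's rho 0.48, and r was 0.47 in the 29 pairs with an identity of 98% or more, which do not include the 2 falling pairs. These points share libraries and reads, and genes are not independent replicates.

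**Figure D3:**
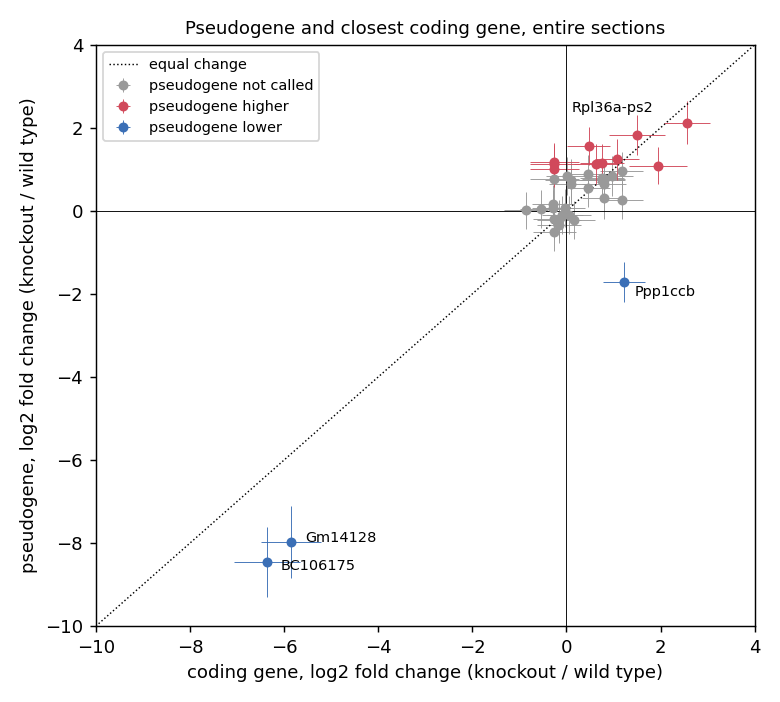
Each of the 40 points is a pseudogene and its closest coding gene, with log2 fold changes of knockout over wild-type entire sections on both axes, bars of 1 SE and a dotted line of equal change. BC106175 and Gm14128 fell together with Prr30 and Ankar, and Ppp1ccb lies below 0 while Ppp1cc lies above it.

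As a share of library counts, members took 0.983%, 0.965% and 0.958% in wild-type entire sections and 1.08%, 1.33% and 1.44% in knockouts. The 44 ribosomal protein copies held 0.526% ± 0.023 (SD, n = 3) in wild type and 1.02% ± 0.14 in knockouts, and the 83 coding genes 1.48% ± 0.01 and 2.02% ± 0.16. Copies thus made up 26.2% ± 1.0 of the counts of copies and coding genes together in wild type and 33.5% ± 1.3 in knockouts. In Leydig-targeted libraries that share was 35.0% ± 3.8 in wild type and 30.9% ± 0.86 in knockouts, and the groups overlapped. The 14 steeply lower members held 0.224% ± 0.029 in wild type and 0.0029% ± 0.0015 in knockouts. In entire sections no wild-type library overlapped a knockout library in any of these measures. For the 14 this follows from their choice by the fall in these same libraries, so it is no further result. With 3 libraries against 3 an exact permutation test cannot go below 0.1.

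**Figure D4:**
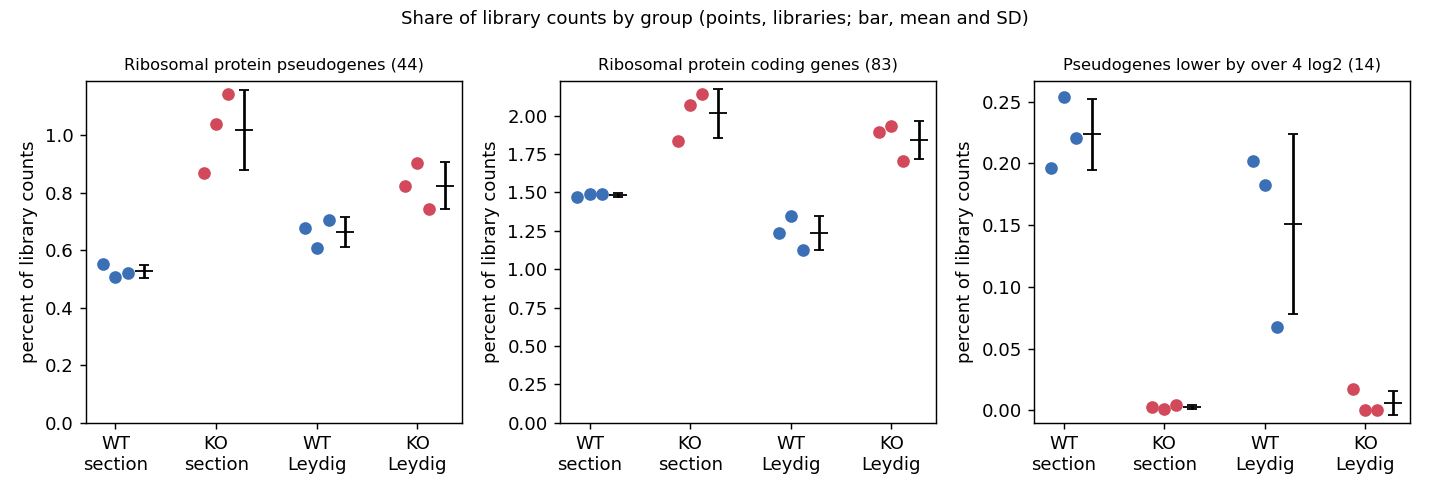
Percent of library counts held by 44 ribosomal protein pseudogenes, 83 ribosomal protein coding genes and the 14 pseudogenes that fell by over 4 on the log2 scale, in the 4 groups; points are libraries and black bars give the mean and SD. In entire sections the knockout points lie above the wild-type points in the first 2 panels and near 0 in the third. The 14 of the third panel were chosen by their fall in these entire sections.

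Leydig-targeted libraries were far shallower, with totals of 5947 to 54882 for wild type and 15208 to 53003 for knockouts. The 10 Leydig cell markers in the table were all counted there, with 1.24% to 2.79% of counts in wild type and 6.16% to 7.44% in knockouts. Germ cell transcripts were present too, since the 12 elongating spermatid markers held 1.40% to 2.86% in wild type and 0% to 0.0132% in knockouts, where Tnp1, Tnp2, Odf1, Smcp, Spata18 and Gapdhs were at 0. The 14 spermatocyte markers held 0.555% to 0.740% and 0.0132% to 0.0227%, with 7 at 0 in knockouts. Their part in the results was not tested. Members took 1.14%, 1.07% and 1.01% of wild-type counts and 1.15%, 1.19% and 0.921% of knockout counts, so the groups overlapped.

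In these libraries 9 members were called lower and 2 higher in knockouts, where 12.7% and 6.05% of all genes were called. All 9 also fell in entire sections and all had 0 of 107899 counts in the knockout Leydig-targeted libraries. Rnls had 32, 5 and 1 counts in wild type, which is at least 15.6-fold lower in knockouts (adjusted p = 2.5e-05, edgeR). 1700024J04Rik had 12, 14 and 1 (at least 11.1-fold, adjusted p = 8.2e-05) and 1700019M22Rik 6, 13 and 0 (at least 7.79-fold, adjusted p = 0.00049). BC106175 had 14, 3 and 0 and 1700031M16Rik 10, 3 and 0 in wild type, with folds of at least 6.97 and 5.33. Only Rnls, 1700024J04Rik, 1700086L19Rik and 4930451G09Rik had a count in every wild-type library. Gm16976, Scgb2b23-ps, 1700086L19Rik and 4930451G09Rik had 10, 10, 8 and 6 wild-type counts in all.

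Gm10051, a copy of the large-subunit gene Rpl28, rose in the Leydig-targeted libraries, from 1, 1 and 0 counts to 11, 9 and 1 (log2 fold change 3.01 ± 1.04, adjusted p = 0.028, edgeR). In entire sections it did not pass, at 0.45 ± 0.44. Gm7336 rose in both, where wild-type libraries had 0, 4 and 0 counts and knockout libraries 13, 11 and 3 (2.38 ± 0.87, adjusted p = 0.037, edgeR). Both of these rises were lost without either of wild-type replicates 1 and 3 or knockout replicates 1 and 2, and DESeq2 called neither. Without wild-type replicate 1 or knockout replicate 1 only 4 members were called lower. When the 6 Leydig-targeted libraries were filtered and fitted alone, 9 members could be tested, and none of the 11 called members was among them, so that fit says nothing about these calls.

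Whether the genotype difference itself differed between Leydig-targeted and entire-section libraries was tested as an interaction, which was called for 0.228% of all genes and for 1 member, Gm14128. The other 68 members did not pass, with 3 of 69 at an unadjusted p under 0.05. The call of Gm14128 rests on 8 counts in knockout Leydig-targeted replicate 1 and was lost without that library (adjusted p = 0.9997, edgeR). In the knockout Leydig-targeted libraries 12 of the 69 members had no count, and all 12 were called lower in entire sections. These libraries held only 107899 counts in all, and the zeros were not compared with those of all genes. They are therefore not read as a trait of the members.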

How the data were processed

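Entire and Leydig-targeted testis sections gave 12 libraries, 3 in each of 4 groups, with 5947 to 566527 counts. The deposited values are raw whole-number counts per gene that the authors did not normalize. The submitters' processing notes name HISAT2, featureCounts, UMI-tools and Trim Galore and the GRCm38 build, without versions. The featureCounts settings for strand and for reads with several positions were not given in sources used here.

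Members and lists were chosen with earlier results of these data known. The members are 69 pseudogene rows with at least 100 counts summed over the 6 entire-section libraries. Counts were tested with edgeR 4.0.16 (robust quasi-likelihood, TMM scaling, R 4.3.3) in 1 fit of 12 libraries. Genes needed about 23.0 CPM in 3 of the entire-section libraries, which kept 7907. P-values were adjusted by Benjamini-Hochberg over those genes and called under 0.05. DESeq2 1.42.0, other scalings and filters, fits of 1 region, a replicate block and leaving out each library were alternatives.

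The closest coding transcript of each pseudogene was found with BLASTN 2.17.0 among GENCODE M21 transcripts of GRCm38 (at least 100 aligned bases and 70% identity). Named members are the 10 with the most counts, up to 10 higher and 10 lower by p with libraries that do not overlap, up to 5 each way in Leydig-targeted libraries, those called against their coding gene and those called in the interaction. The closest coding gene is given beside a named member, except 1 that is not reported here. Other called members are named with their values, chosen after these were seen. In entire sections, wild-type and knockout libraries with the same number deviated alike from their group means across genes (r of 0.201, 0.118 and 0.161), so the numbers were taken as pairing them; per the deposited barcode list same-numbered libraries of both genotypes share a sample barcode, in Leydig-targeted libraries too. The Leydig-targeted values were 0.0029, 0.0106 and 0.00205, so there the numbers were not taken as pairs. Intervals of count ratios are exact at 95% and, as with the floor of 3 counts, take in counting error alone.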

Additional observations from a re-analysis of the deposited data

Results flagged for a closer look

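Gm14128 was the member whose genotype difference differed between regions. The interaction was 10.55 ± 1.69 on the log2 scale (SE, adjusted p = 1.8e-06, edgeR). In entire sections the wild-type libraries had 65, 57 and 27 counts and the knockout libraries none. In Leydig-targeted libraries the wild-type counts were 1, 0 and 0 and the knockout counts 8, 0 and 0, so all 8 knockout counts came from replicate 1. Without that library the interaction was 3.96 and did not pass (adjusted p = 0.9997). The 13 other members that fell by over 4 on the log2 scale had 1 count among them in that library. Its closest coding gene, Ankar, had 0 counts in every knockout Leydig-targeted library.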

How the results depend on the processing

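In entire sections 13 members were called higher. Library size alone gave 31, the 6 libraries alone 30 and the replicate block 32, while leaving out 1 library gave 11 to 23, the last without knockout Leydig-targeted replicate 1. The 16 lower calls numbered 14 to 16 without 1 library and 9 with a member minimum of 200 counts, which leaves fewer members. In Leydig-targeted libraries the 2 higher calls became 0 with DESeq2, 1 with RLE size factors, 1 without a filter and ran from 0 to 3 without 1 library. The 9 lower calls became 5 without a filter and 5 with the higher minimum, and ran from 4 to 10 without 1 library. Fits of those 6 libraries, with or without the replicate block, called 0 higher and 0 lower, but test none of these 11 members. The interaction call ran from 0 to 1 without 1 library. DESeq2 also made 1, but of Spn-ps (adjusted p = 0.030), and gave no adjusted p for Gm14128. The pair of opposite calls ran from 0 to 1, lost without either of knockout entire section replicates 1 and 2, and was 0 among pairs whose symbols name the parent. The share difference in Leydig-targeted libraries, 0.0162 percentage points, ran from -0.0355 to 0.1001. The cause was not tested.

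Values near 0 changed sign. Rps7-ps3 in entire sections was 0.44 with library size alone, 0.18 without a filter, 0.19 in the 6 libraries alone and 0.18 with the replicate block, and ran from -0.17 to 0.30 without 1 library. Gm5781 was 0.31, 0.057, 0.062 and 0.026 in the same order and ran from -0.30 to 0.23. Rpl15-ps3 was -0.042 with both DESeq2 and RLE size factors. Upper quartile scaling could not be fitted, because 1 library has an upper quartile of 0. The replicate block changed no other direction or call among the members called lower in entire sections. Pairs with 50% or more of the pseudogene aligned, chosen after seeing the data, held the same pair. Depth limits what the Leydig-targeted libraries can show.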
